A study of Homo sapiens with 9 samples.

Results

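The genes of this account code for the transcription factor AP-1 and for the immediate early products that cells switch on with it. They were taken as a list of 10 names, FOS, FOSB, FOSL1, FOSL2, JUN, JUNB, JUND, EGR1, DUSP1 and IER2, out of 14232 genes tested, and all 10 were measured, each by 1 probe set that carries a single gene symbol. Expression was measured on 9 arrays of PANC-1, a cell line of epithelial type that came from a pancreatic carcinoma. Arrays fell into 3 groups of 3 biological replicates. Cells of the first group received the transfection lipid alone, cells of the second a negative control mimic at 20 nM, and cells of the third a miR-520f mimic at 20 nM. All cultures were exposed to the lipid, and RNA was taken 72 h later. Mimics are synthetic RNA duplexes that are made to enter the silencing complex in place of a natural microRNA. Each mimic group is thus meant to hold more of 1 small RNA than cells make on their own, in a single cell line. Levels of the mimics in the cells are not given here.

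AP-1 is a dimer. JUN, JUNB and JUND can pair with each other or with a partner of the FOS family, whereas FOS, FOSB, FOSL1 (also called FRA-1) and FOSL2 (FRA-2) need a JUN partner to bind DNA. Growth factors and stress act on these genes through the MAP kinases, in part through serum response factor and its ETS partners, and the transcripts of several members are short-lived. EGR1, a zinc finger activator, and IER2, a small nuclear protein, are induced by the same stimuli, and DUSP1 is a nuclear phosphatase that switches the MAP kinases off again. In carcinoma cells with active RAS signalling, PANC-1 among them, FOSL1 is known as the FOS family member that accumulates.

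The microRNA sequence is shown because the treated groups differ by it, with bases 2 to 8, the seed that pairs with target transcripts, in capitals. Sequences are those of RefSeq on build GRCh38.p14, at chr19:53682213-53682234 for the 3p arm and chr19:53682173-53682194 for the 5p arm, both on the plus strand. The labels name miR-520f without an arm. Each of the seeds was found in 1 of 2370 mature microRNA names of the table.
hsa-miR-520f-3p: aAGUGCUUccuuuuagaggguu
hsa-miR-520f-5p: cCUCUAAAgggaagcgcuuucu

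Promoters of 4 members are shown because the data separate these genes: EGR1 is a gene that was higher with miR-520f, JUN and DUSP1 were lower, and FOSL2 differed between the controls. Each window runs from 250 bases before to 50 bases after the RefSeq start of the gene, on build GRCh38.p14. Capitals mark matches, on either strand, to the AP-1 site TGAGTCA, a variant of it known from the JUN promoter, TGACATCA, the cAMP response element TGACGTCA, the serum response element known as the CArG box, the EGR1 site GCGTGGGCG and the TATA box TATAAA. No matches of different motifs overlapped in these windows. EGR1 lies on the plus strand at chr5:138465229-138465528, DUSP1 on the minus strand at chr5:172771146-172771445, JUN on the minus strand at chr1:58783998-58784297 and FOSL2 on the plus strand at chr2:28392608-28392907.
EGR1: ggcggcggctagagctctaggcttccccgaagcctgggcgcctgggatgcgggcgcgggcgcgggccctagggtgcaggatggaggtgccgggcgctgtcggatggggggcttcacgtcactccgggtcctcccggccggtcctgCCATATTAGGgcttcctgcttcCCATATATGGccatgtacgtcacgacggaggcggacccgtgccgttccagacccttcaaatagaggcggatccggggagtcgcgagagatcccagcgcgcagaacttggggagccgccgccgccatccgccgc
JUN: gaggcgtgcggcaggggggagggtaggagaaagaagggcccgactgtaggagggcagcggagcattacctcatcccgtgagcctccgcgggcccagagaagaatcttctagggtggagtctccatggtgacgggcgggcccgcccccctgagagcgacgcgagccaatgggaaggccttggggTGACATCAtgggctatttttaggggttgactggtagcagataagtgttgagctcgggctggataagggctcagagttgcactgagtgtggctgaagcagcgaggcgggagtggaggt
DUSP1: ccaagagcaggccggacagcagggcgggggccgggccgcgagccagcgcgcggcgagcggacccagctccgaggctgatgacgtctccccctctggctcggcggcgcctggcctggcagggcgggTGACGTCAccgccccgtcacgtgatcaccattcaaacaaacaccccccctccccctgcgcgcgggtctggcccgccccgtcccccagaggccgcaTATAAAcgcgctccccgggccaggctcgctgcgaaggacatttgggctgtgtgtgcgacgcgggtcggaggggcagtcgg
FOSL2: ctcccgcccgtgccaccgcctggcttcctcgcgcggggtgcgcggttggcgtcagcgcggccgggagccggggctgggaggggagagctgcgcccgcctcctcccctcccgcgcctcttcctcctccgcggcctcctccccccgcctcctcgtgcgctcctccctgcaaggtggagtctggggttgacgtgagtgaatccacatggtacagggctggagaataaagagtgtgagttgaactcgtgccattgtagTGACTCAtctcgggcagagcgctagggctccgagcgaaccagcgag
The EGR1 window held 2 CArG boxes, at positions -105 to -96 and -83 to -74 from the start of the gene, and 1.29% of 35116 promoter windows held at least 1. It was the 1 window with a CArG box among the 9 members' windows. The window of IER2, the other member that rose, held no match to any of these motifs. JUN held the variant site (2.61% of all windows) at -67 to -60. DUSP1 held a cAMP response element at -125 to -118, and JUND was the other member with one (1.85% of all windows). FOSL2 held an AP-1 site at 5 to 11 bases past the start, on the minus strand of the gene, and 4.95% of all windows held that motif. A TATA box was found for DUSP1, FOS, FOSB and JUNB, 4 of 9 windows against 11.5% of all windows. The EGR1 site was found in 0 of the 9 members' windows and in 0.795% of all. Motif matches describe the letters only, and binding was not measured. The promoter of FOSL1 was not analysed here.

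Values are RMA log2 intensities, on which a difference of 1 is a doubling. Levels of different probe sets are set only against the median gene level or those of gene lists, as a rough guide. The medians of the 9 arrays ran from 4.22 to 4.34. Precision is limited by how many arrays there are. Deviations from the group mean, as a root mean square over all tested genes, were 0.169 for control mimic replicate 1 and 0.0698 to 0.131 for the other 8 arrays. Over the 10 genes described here, lipid-only replicate 1 had the largest, 0.218, with the other 8 between 0.0647 and 0.184. Of the 10 markers of pancreatic ductal epithelium, 8 stood above the median gene level of 4.53 in each group, KRT8 among them (11.6, 11.3 and 11.4 with lipid, control mimic and miR-520f) but not KRT7 (3.46, 3.50 and 3.46). Of this list, 1 gene rose with miR-520f against both controls (10%, against 9.37% of all genes) and 2 fell (20%, against 8.61%). EPCAM rose (log2 fold changes 1.57 against lipid and 1.68 against the control mimic), and MUC1 (-1.35 and -1.01) and KRT19 (-0.75 and -0.68) fell. Of other cell types, 1 of 8 fibroblast, 1 of 7 immune, 0 of 7 endothelial and 0 of 5 acinar and endocrine markers stood above that level, with COL1A1 and the lysosomal protein CD68 (8.65, 8.24 and 7.35) as the exceptions. The leukocyte gene PTPRC measured 3.08, 3.05 and 2.99. The summed linear intensity of the immune markers moved with the groups, from 435 to 534 with lipid and 344 to 388 with the control mimic to 212 to 236 with miR-520f. CD68 was the 1 immune marker of 7 that was called with miR-520f (-1.31 against lipid and -0.90 against the control mimic). That was 14.3% of the list against both controls, against 18.0% of all genes. The log2 fold changes of the other 6 immune markers lay between -0.10 and 0.13. The part of these marker changes in the results below was not tested.

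**Figure D1:**
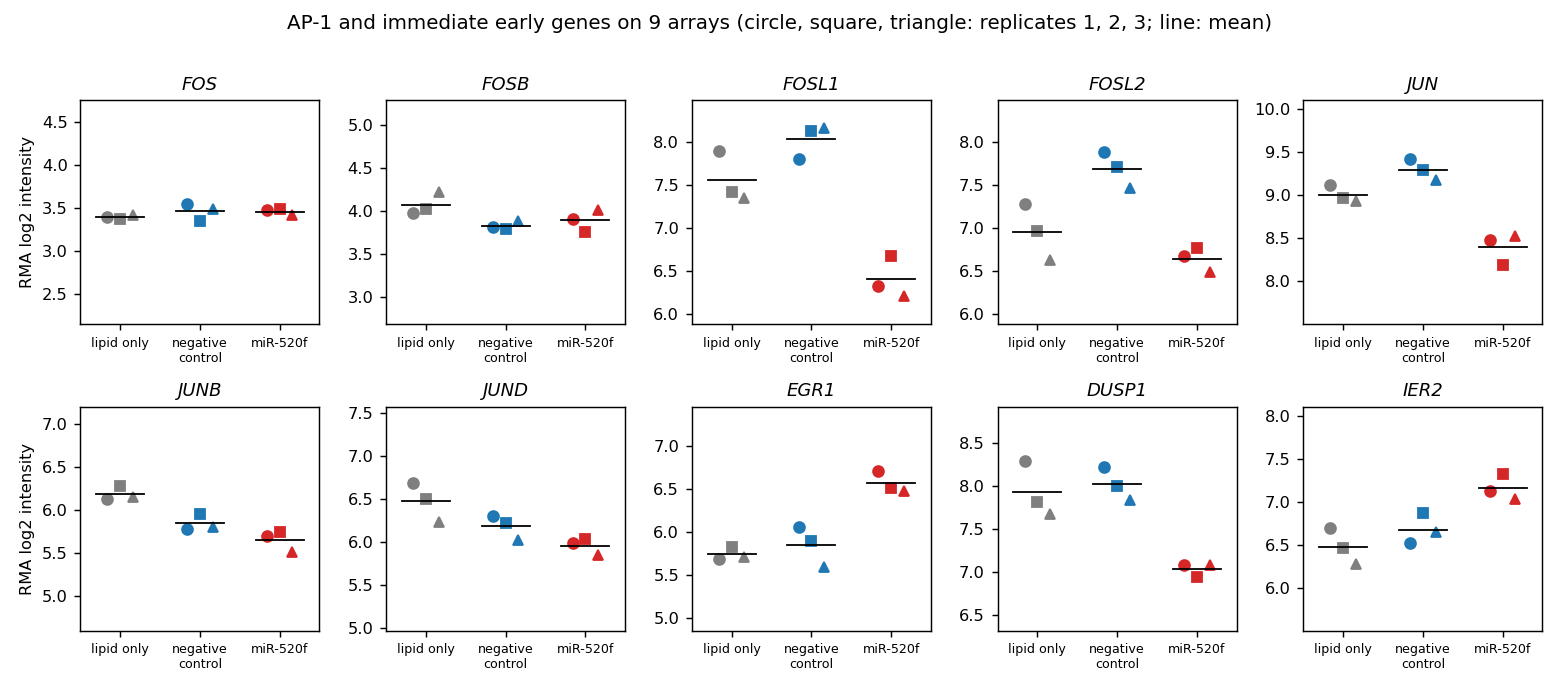
RMA log2 intensity (vertical axes, all of the same span) of the 10 AP-1 and immediate early genes on 9 arrays. Points are arrays, with circles, squares and triangles for replicates 1, 2 and 3, and lines are group means of 3 arrays. FOSL1, JUN and DUSP1 are lower and EGR1 and IER2 higher on the 3 miR-520f arrays than on all 6 control arrays.

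With miR-520f, 5 of the 10 genes changed in the same direction against both controls. FOSL1, JUN and DUSP1 fell and EGR1 and IER2 rose. Among all genes, 18.0% were called in this way (9.37% higher and 8.61% lower), where a call is a limma adjusted p under 0.05 in each comparison with the same sign. The 10 genes had a median level of 6.49, above the median gene level of 4.53. The share among genes of similar level was not computed. FOSL2 fell against the control mimic alone, JUNB and JUND fell against lipid alone, and FOS and FOSB were not called in any comparison. Since an array averages over the culture, a change in a share of the cells and a smaller change in all of them cannot be told apart. On 6 of the 10 probe sets the 3 miR-520f arrays all lay on one side of the 6 control arrays, the 5 genes above and JUNB, where this held for 25.4% of all genes.

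Counted by comparison, 7 of the 10 were called between miR-520f and lipid alone, 2 higher and 5 lower, against 27.6% of all genes. Between miR-520f and the control mimic 6 were called, 2 higher and 4 lower, against 28.1% of all genes. Between the control mimic and lipid alone 2 were called, FOSL2 higher and JUNB lower, against 15.3% of all genes. The median log2 fold change of the 10 was -0.41 with miR-520f against lipid and -0.21 against the control mimic, where the medians of all genes were -0.03 and -0.03. The comparisons share arrays (the miR-520f arrays enter 2 of them), so their values are given side by side and not as separate evidence.

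FOSL1 showed the widest difference of the 10. Its log2 values were 7.90, 7.42 and 7.36 on the lipid-only arrays of replicates 1 to 3, 7.81, 8.13 and 8.16 with the control mimic, and 6.33, 6.68 and 6.21 with miR-520f. Every miR-520f array lay below every control array, and the controls overlapped each other. FOSL1 fell 2.22-fold against lipid (log2 fold change -1.15, SE 0.16, limma adjusted p = 0.000299). Against the control mimic the fall was 3.09-fold (-1.63, SE 0.16, limma adjusted p = 2.45e-05). The controls differed by 0.48 (95% interval 0.12 to 0.83), which did not pass (limma adjusted p = 0.0775). That last value passed without lipid-only replicate 1 (0.65, limma adjusted p = 0.0182) or without control mimic replicate 1 (0.59, limma adjusted p = 0.0437). A second probe set names FOSL1 together with LARP1B and was not used for either.

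FOSL2, the relative of FOSL1 that also lacks the strong activation domain of FOS, followed another order of groups. It measured 7.28, 6.96 and 6.63 with lipid, 7.88, 7.71 and 7.47 with the control mimic, and 6.68, 6.77 and 6.49 with miR-520f. The control mimic arrays stood above all others, whereas the lipid-only and miR-520f arrays overlapped. FOSL2 was higher with the control mimic than with lipid by 0.73 (SE 0.16, limma adjusted p = 0.00918), a call lost without moderation (limma fit, adjusted p = 0.0778). FOSL2 fell with miR-520f against the control mimic (-1.04, SE 0.16, limma adjusted p = 0.000427). The log2 fold change against lipid, -0.31 with a 95% interval of -0.66 to 0.03, did not pass (limma adjusted p = 0.191). Without lipid-only replicate 3 it did, at -0.48 (limma adjusted p = 0.0351), and with array weights, at -0.28 (limma adjusted p = 0.0202).

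FOS and FOSB, the members with the strong activation domain, had values below the median gene level on every array. Over the 9 arrays FOS averaged 3.44 and FOSB 3.93, where the marker lists of other cell types had median levels of 3.17 to 3.67. Signal above background was not tested, so the intervals that follow describe the probe set values and do not bound a change of the transcripts. FOS read 3.37 to 3.42 with lipid, 3.35 to 3.55 with the control mimic and 3.42 to 3.49 with miR-520f, and the 3 groups overlapped. Its log2 fold changes were 0.07 against lipid (95% interval -0.09 to 0.23) and -0.01 against the control mimic (-0.16 to 0.15). FOSB lay between 3.76 and 4.22 on all arrays, with 3.97, 4.02 and 4.22 on the lipid-only ones. Its log2 fold changes with miR-520f were -0.18 (95% interval -0.37 to 0.02) and 0.06 (-0.13 to 0.26). The 3 control mimic arrays of FOSB, at 3.79 to 3.88, lay below the lipid-only arrays by a difference that did not pass (-0.24, limma adjusted p = 0.101).

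JUN, the founding partner of the dimer and the strongest activator of its family, fell with miR-520f. Values were 9.12, 8.96 and 8.93 with lipid, 9.42, 9.29 and 9.18 with the control mimic, and 8.47, 8.18 and 8.52 with miR-520f. The 3 groups did not overlap, with miR-520f lowest and the control mimic highest. JUN fell 1.53-fold against lipid (-0.61, SE 0.10, limma adjusted p = 0.00109) and 1.87-fold against the control mimic (-0.90, SE 0.10, limma adjusted p = 6.97e-05). The difference between the controls, 0.29 (95% interval 0.06 to 0.52), did not pass (limma adjusted p = 0.0918).

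JUNB, a weaker activator that can hold JUN back, descended over the groups without overlap. It read 6.13, 6.28 and 6.16 with lipid, 5.78, 5.96 and 5.80 with the control mimic, and 5.70, 5.74 and 5.51 with miR-520f. JUNB fell with miR-520f against lipid (-0.54, SE 0.09, limma adjusted p = 0.000718), and the control mimic was also lower than lipid (-0.34, SE 0.09, limma adjusted p = 0.0203). Between miR-520f and the control mimic the log2 fold change of -0.19 (95% interval -0.38 to -0.0044) did not pass (limma adjusted p = 0.129). The call between the controls was lost without lipid-only replicate 2 (-0.30, limma adjusted p = 0.0970), without control mimic replicate 1 (-0.31, limma adjusted p = 0.0501) and without control mimic replicate 3 (-0.32, limma adjusted p = 0.0545). It was also lost without moderation (limma fit, adjusted p = 0.0606).

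JUND, the member that resting cells keep, had the same order of group means. Its values were 6.69, 6.50 and 6.24 with lipid, 6.31, 6.22 and 6.02 with the control mimic, and 5.99, 6.03 and 5.85 with miR-520f. The miR-520f arrays lay below the lipid-only ones and overlapped those of the control mimic. JUND fell against lipid (-0.52, SE 0.12, limma adjusted p = 0.00630). It was not called against the control mimic (-0.22, 95% interval -0.48 to 0.03, limma adjusted p = 0.201). The controls differed by -0.29, which was not called (limma adjusted p = 0.136) and passed without lipid-only replicate 3 (-0.41, limma adjusted p = 0.0359).

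EGR1 rose with miR-520f. It measured 5.69, 5.83 and 5.72 with lipid, 6.06, 5.90 and 5.60 with the control mimic, and 6.72, 6.52 and 6.49 with miR-520f. Controls overlapped each other and lay below every miR-520f array. The rise was 1.78-fold against lipid (0.83, SE 0.11, limma adjusted p = 0.000251) and 1.65-fold against the control mimic (0.72, SE 0.11, limma adjusted p = 0.000641). Between the controls the log2 fold change was 0.11 (95% interval -0.14 to 0.36).

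IER2 rose as well, from 6.70, 6.47 and 6.27 with lipid and 6.52, 6.87 and 6.65 with the control mimic to 7.13, 7.33 and 7.04 with miR-520f. All 3 miR-520f values were above the 6 control values, and the controls overlapped. IER2 was 1.61-fold higher than with lipid (0.69, SE 0.13, limma adjusted p = 0.00163) and 1.40-fold higher than with the control mimic (0.49, SE 0.13, limma adjusted p = 0.0123). The second of these calls was lost without miR-520f replicate 2 (0.41, limma adjusted p = 0.0556) and without moderation (0.49, adjusted p = 0.0665). In each case 4 of the 10 genes, 1 higher and 3 lower, were called against both controls. The main fit called 18.0% of all genes in this way, and the share under these settings is not given here.

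DUSP1, the phosphatase of the list, fell by nearly the same amount against either control. Values were 8.29, 7.81 and 7.67 with lipid, 8.22, 8.004 and 7.84 with the control mimic, and 7.08, 6.94 and 7.08 with miR-520f. The miR-520f arrays were closer together (SD 0.08) than the lipid-only arrays (SD 0.32) and lay below all controls. DUSP1 fell 1.86-fold against lipid (-0.89, SE 0.15, limma adjusted p = 0.000882) and 1.98-fold against the control mimic (-0.99, SE 0.15, limma adjusted p = 0.000418), and the controls differed by 0.10 (95% interval -0.23 to 0.42).

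**Figure D2:**
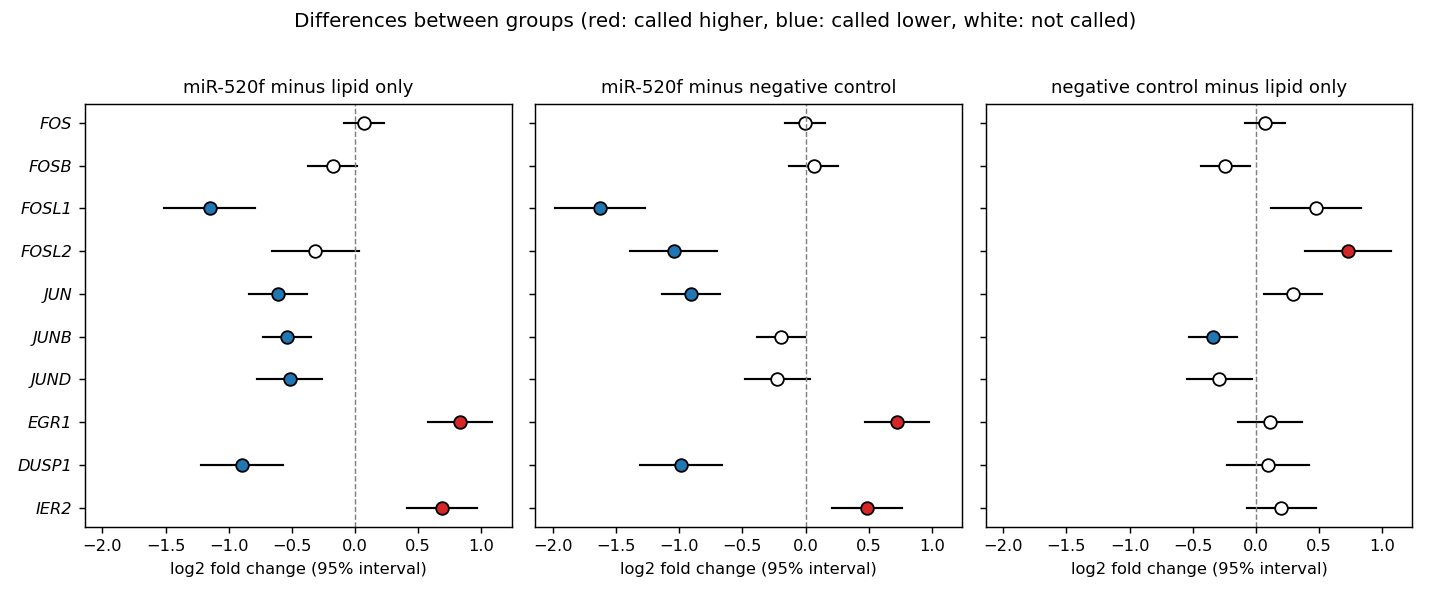
Log2 fold changes of the 10 genes (horizontal axes) in the 3 comparisons, with 95% intervals from the limma fit over 9 arrays. Red points were called higher, blue points lower and white points were not called. FOSL1 reaches -1.63 against the control mimic, and EGR1 and IER2 are the red points in both miR-520f comparisons.

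The order of the 3 arrays within a group differed between members. Among the lipid-only arrays, replicate 1 was the highest and replicate 3 the lowest for the same 6 members, FOSL1, FOSL2, JUN, JUND, DUSP1 and IER2, whereas replicate 1 was the lowest for FOSB, JUNB and EGR1. With the control mimic, replicate 1 was the highest for 6 members (FOS, FOSL2, JUN, JUND, EGR1 and DUSP1) and the lowest for FOSL1, JUNB and IER2, and replicate 3 was the lowest for 5 of these, all but FOS. With miR-520f, replicate 2 was the highest for 6 and replicate 3 the lowest for 7. Leaving out lipid-only replicate 1 changed the call of FOSL1 between the controls and of no other member.

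The genes whose values followed a member most closely were taken as the 3 with the highest Pearson correlation over the 9 arrays, among all genes tested. The arrays fall into 3 groups, so these values are led by the group means and describe this set of arrays. For FOSL1 they were PRC1 (r = 0.987), UBL3 (0.987) and DNMT1 (0.985). For JUN they were SLC71A1 (0.994), ELOVL2 (0.992) and RFX5 (0.991). For EGR1 they were SRF (0.987), PRR3 (0.978) and SEMA3D (0.978), the last of them at group means of 2.64 to 2.95. Correlations of the deviations from the group means, which leave the group differences out, were 0.815 to 0.957 over these 9 pairs. The genes were picked on the same arrays by a correlation that includes these deviations, so high values follow in part from that choice.

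Among factors that act on the promoters of immediate early genes, 1 of 10 measured genes rose with miR-520f against both controls (10.0%, against 9.37% of all genes) and 3 fell (30.0%, against 8.61%). The gene that rose was SRF, the serum response factor that binds CArG boxes. It went from 7.75, 7.75 and 7.68 with lipid and 7.85, 7.77 and 7.61 with the control mimic to 8.27, 8.14 and 8.07 with miR-520f (log2 fold changes 0.43 and 0.42 against lipid and the control mimic, limma adjusted p = 0.00234 and 0.00290). All miR-520f arrays lay above all control arrays. ELK4, an ETS partner of SRF, fell from 7.18 to 7.31 with lipid and 7.28 to 7.60 with the control mimic to 6.67 to 6.77 with miR-520f (-0.52 and -0.73). FHL2, a LIM protein that binds SRF and AP-1 proteins, fell too (-0.77 and -0.74). MRTFA, an actin-regulated coactivator of SRF, fell by 0.42 and 0.33 on the log2 scale, and its call against the control mimic was lost under 6 of 18 alternative settings. ELK1, the best known of the ETS partners, was not called (0.18 and 0.18).

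**Figure D3:**
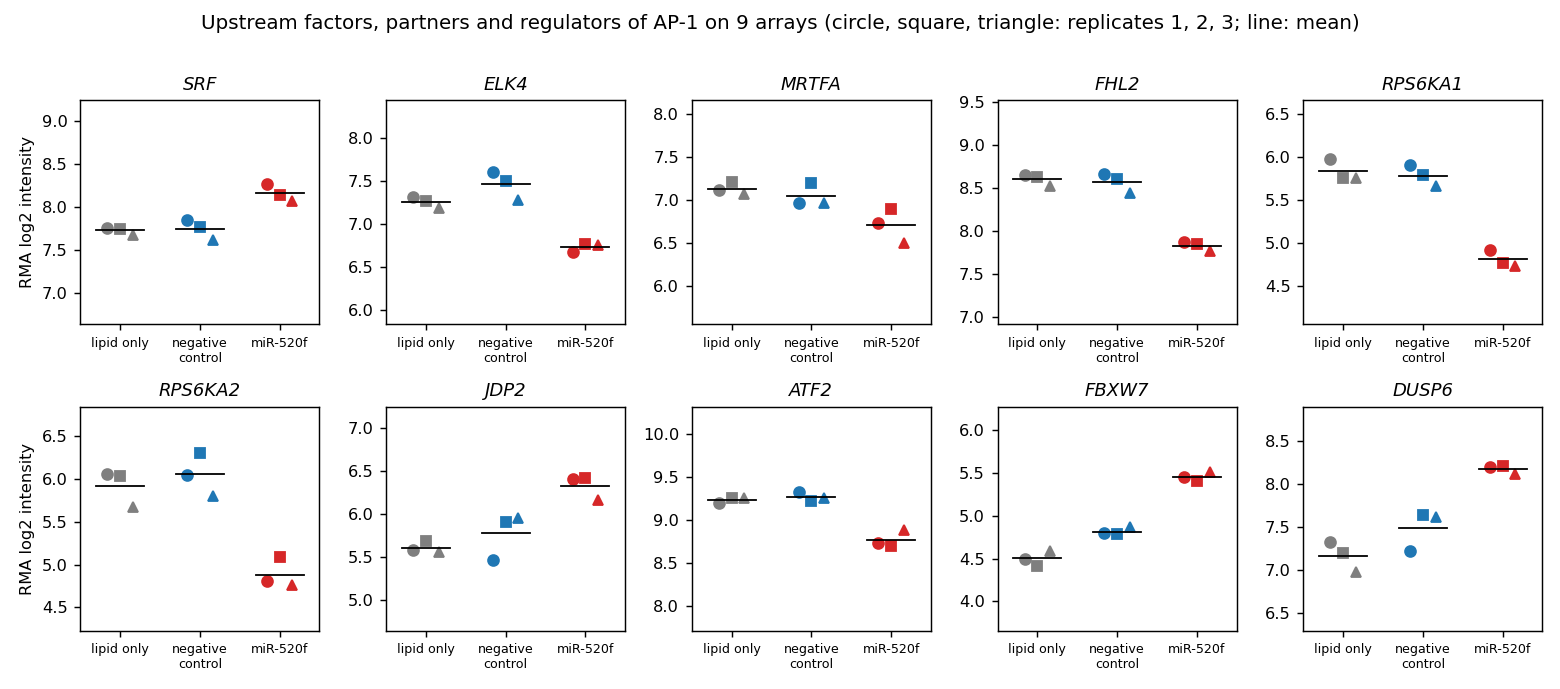
RMA log2 intensity (vertical axes, all of the same span) of 10 genes that act on AP-1 or with it, on 9 arrays. Circles, squares and triangles are replicates 1, 2 and 3, and lines are group means of 3 arrays. SRF, JDP2, FBXW7 and DUSP6 are higher, and the other 6 genes lower, on the miR-520f arrays than on the controls.

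The MAP kinase cascade carries signals to these genes. Of 28 measured genes, 5 rose and 10 fell with miR-520f against both controls (53.6%, against 18.0% of all genes), and 12 were called between the controls themselves (42.9%, against 15.3%). Of the 4 largest changes, ranked by the smaller of both fold changes, 3 were falls of kinases that ERK or p38 activate. RPS6KA1 fell from 5.985, 5.76 and 5.76 with lipid and 5.91, 5.79 and 5.66 with the control mimic to 4.92, 4.78 and 4.74 with miR-520f (-1.02 and -0.98). RPS6KA2, of the same ribosomal S6 kinase family, fell by 1.03 and 1.17, and RPS6KA4, a nuclear kinase of the family, by 0.81 and 0.65. MAP2K6, an activator of p38, rose from low levels (2.96 with the control mimic to 3.86 with miR-520f, log2 fold changes 0.85 and 0.89).

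Of 12 phosphatases other than DUSP1 that were measured, 3 rose against both controls in limma (25%, against 9.37% of all genes). The number that fell was 0, where 8.61% of all genes fell. It was also 0 where both unadjusted limma p-values were under 0.05, and 0 without moderation. The list had a median level of 4.25, below the median gene level of 4.53. DUSP6, a cytoplasmic phosphatase of ERK, rose from 7.32, 7.19 and 6.98 with lipid and 7.21, 7.63 and 7.61 with the control mimic to 8.19, 8.20 and 8.12 with miR-520f (1.01 and 0.68). DUSP16, which acts on JNK and p38, rose by 0.84 and 0.94, and DUSP14 by 0.54 and 0.46. DUSP5, a nuclear phosphatase of ERK named here after its values were seen, had the group order of FOSL2: 7.01, 6.66 and 6.41 with lipid, 7.88, 8.06 and 7.75 with the control mimic, and 6.77, 6.61 and 6.66 with miR-520f. It was higher with the control mimic than with lipid by 1.21 (limma adjusted p = 0.000244), and it fell with miR-520f against the control mimic (-1.22, limma adjusted p = 5.77e-05), while miR-520f differed from lipid by -0.02.

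Of 24 other immediate early genes that were measured, 5 rose (20.8%, against 9.37% of all genes) and 1 fell (4.17%, against 8.61%) with miR-520f against both controls. IER3, a regulator of survival, fell from 10.4 with either control to 9.42 (-0.96 and -0.96). The orphan nuclear receptor NR4A1 rose from 4.27 and 4.19 to 5.12 (0.85 and 0.93), the kinase SGK1 from 3.65 and 3.59 to 4.58 (0.93 and 0.99), and ZFP36L1, which binds AU-rich elements and promotes decay of the transcripts that hold them, from 7.13 and 7.08 to 7.95 (0.82 and 0.87). The call of ZFP36L1 against lipid was lost without moderation (limma fit, adjusted p = 0.0582). Its control mimic values were spread, at 6.50, 7.35 and 7.38. Its rise against the control mimic ran from 0.58 to 1.02 over 18 alternative settings. Against the control mimic 7 rose and 4 fell (45.8%, against 28.1% of all genes), and against lipid 6 rose and 2 fell (33.3%, against 27.6%).

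Of 23 related bZIP factors, which share the DNA-binding and dimerization domain of AP-1, 4 rose and 2 fell against both controls, 26.1% of the list against 18.0% of all genes. JDP2, a repressor that pairs with JUN, rose (0.72 and 0.56), as did CREM, of the cAMP response family, from low levels (3.52 and 3.35 to 4.07). ATF2, a partner of JUN on cAMP response elements, fell (-0.46 and -0.49), and ATF5 fell as well (-0.65 and -0.82).

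Regulators of the stability of the members' proteins and transcripts differed by comparison. FBXW7, a subunit of a ubiquitin ligase that marks JUN for degradation, rose from 4.50, 4.42 and 4.59 with lipid and 4.80, 4.78 and 4.86 with the control mimic to 5.45, 5.40 and 5.50 with miR-520f (0.95 and 0.64). The groups did not overlap, and FBXW7 was also higher with the control mimic than with lipid (0.31, limma adjusted p = 0.0122), a call lost without lipid-only replicate 2 (0.27, limma adjusted p = 0.0687). The ubiquitin ligase UBR1 (0.56 and 0.56) and the F-box protein FBXL16 (0.44 and 0.57) rose. Of 6 measured genes of protein turnover, 3 rose against both controls and 0 fell in limma (5 and 0 where both unadjusted p-values were under 0.05, and 3 and 0 without moderation). GSK3B, a kinase that phosphorylates JUN ahead of its degradation, fell against the control mimic (-0.48, limma adjusted p = 0.000862) and was not called against lipid (-0.16). GSK3B was higher with the control mimic than with lipid (0.32, limma adjusted p = 0.0195). The share of the turnover genes that rose was 50%, against 9.37% of all genes, and 8.61% of all genes fell. Protein levels were not measured. Of 12 genes that act on AU-rich transcripts, 4 rose against both controls in limma (33.3%, against 9.37% of all genes). The number that fell was 0, where 8.61% of all genes fell. The counts were also 4 and 0 where both unadjusted limma p-values were under 0.05. The 4 that rose were ZFP36L1, the decay factor KHSRP (0.40 and 0.37), the stabilizing protein ELAVL1 (0.29 and 0.64) and HNRNPD (0.23 and 0.32). ZFP36L2, a relative of ZFP36L1, fell against lipid (-0.75, limma adjusted p = 0.00319) and was not called against the control mimic (-0.25). ZFP36L2 was lower with the control mimic than with lipid (-0.51, limma adjusted p = 0.0465). So was ELAVL1 (-0.34, limma adjusted p = 0.0253), a call lost under 5 of 18 alternative settings. The call of KHSRP against the control mimic was lost without miR-520f replicate 1 (0.34, limma adjusted p = 0.0527). Against lipid, the call of ELAVL1 was lost under 9 and that of HNRNPD under 11 of 18 alternative settings, and 1 gene of this list rose against both controls without moderation.

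Genes known as AP-1 targets in other systems were lower where they were called against both controls. Of 25 measured, 8 fell against both controls in limma (32.0%, against 8.61% of all genes) and 0 rose (against 9.37% of all genes). These counts were 9 and 0 by unadjusted limma p-values under 0.05 in each comparison, and 6 and 0 without moderation. Many of the 25 genes were dim, with a median level of 3.57 over the list. Like the other lists, this one was chosen with earlier results of these data known, so its shares are descriptive and do not test it. EZR, ezrin, which ties the membrane to actin, fell from 9.63 and 9.54 to 8.20 (-1.43 and -1.34), and the hyaluronan receptor CD44 and the protease inhibitor TIMP1 fell by more than 1 in each comparison. HMOX1, the haem-degrading oxygenase, fell by 1.46 against lipid and by 0.68 against the control mimic, and it was also lower with the control mimic than with lipid (-0.78, limma adjusted p = 0.0125). Its call against the control mimic was lost without control mimic replicate 2 (-0.60, limma adjusted p = 0.0546) and without miR-520f replicate 3 (-0.53, limma adjusted p = 0.0623). Without moderation that call (adjusted p = 0.0873 in the limma fit) and the one between the controls (0.0959) were lost. The other genes that fell, named after their values were seen, were the urokinase gene PLAU (-1.27 and -0.62, and -0.65 between the controls), ITGA2 (-0.55 and -0.98), cyclin D1, CCND1 (-0.52 and -0.92), and VEGFA (-0.34 and -0.34). The collagenase MMP1, a classic AP-1 target, read 2.79, 2.75 and 2.79 in the groups and was not called.

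**Figure D4:**
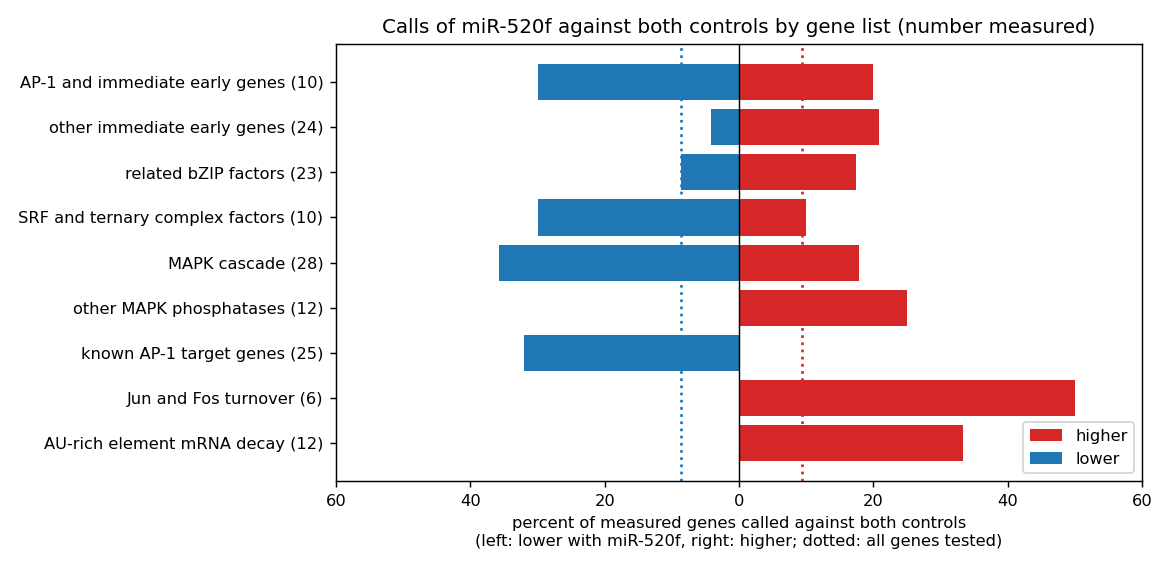
Percent of the measured genes of each list called with miR-520f against both controls (horizontal axis, lower to the left and higher to the right), with the number measured in parentheses. Dotted lines mark the same shares over all 14232 genes, 8.61% lower and 9.37% higher. The bar of known AP-1 targets extends to the left only (32.0%), and those of turnover, AU-rich decay and other MAP kinase phosphatases to the right only. The lists were chosen with earlier results of these data known, so the bars are descriptive.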

How the data were processed

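The authors deposited 1 table of RMA log2 intensities for 22011 probe sets on 9 arrays of total RNA. RMA, Partek 6.6 and human build hg18 are named in the submitters' processing notes, and settings are not given in the sources used here. Probe sets were named through the platform annotation: 14432 carry 1 symbol, 2408 several, and 5171 were not named here. Per gene the probe set with the highest mean over 9 arrays was used, which gave 14232 genes. Groups were compared with limma 3.58.1 in R 4.3.3 (1 mean per group, all 9 arrays, 6 residual degrees of freedom, empirical Bayes), with Benjamini-Hochberg adjustment over all tested genes and a threshold of 0.05. The fit was tested on simulated data with few changed genes and the same noise on all arrays, which checks the code and not the calls made here. Replicates are labelled biological, with no word on whether cultures were independent, so the p-values reflect only how far these arrays differ. Members and lists were chosen with earlier results of these data known. Named genes were all 10 members, up to 4 members of each other list with the largest smaller fold change among those called against both controls, and the closest genes of FOSL1, JUN and EGR1. Genes outside that rule are given as such or as background examples. Alternatives covered normalization, dim genes, moderation, array weights, the features tested, the replicate block and each array left out.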

Additional observations from a re-analysis of the deposited data

How the results depend on the processing

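Over 18 alternative settings, the members' 540 fold changes kept direction and side of the threshold in 519 cases. A call was lost in 7 and gained in 14, and 0 called values changed sign. The 7 miR-520f calls against lipid and 6 against the control mimic stayed within 1.5 times of these counts under each setting run, scaling included. The call count between the controls was less stable. It went from 2 to 0 without moderation (2 higher and 2 lower at an unadjusted p under 0.05) and to 7 with array weights, and to 1 to 3 when single arrays were left out. Array weights, which ran from 0.244 (control mimic replicate 1) to 4.86 (miR-520f replicate 1), also raised the calls over all genes from 3927 to 6251 against lipid and from 2174 to 3355 between the controls, which fell to 1287 without moderation and to 1394 without lipid-only replicate 2. Leaving out single arrays gave 7 to 8 members called against lipid, 5 to 6 against the control mimic and 4 to 6 against both. The main fit called 27.6% of all genes against lipid, 28.1% against the control mimic and 18.0% against both. These shares with single arrays left out are not given here. Same-numbered arrays deviated together only weakly (correlations -0.03 to 0.20 over genes), so numbers were not taken to pair the arrays. With the replicate block, 8, 6 and 3 members were called in the comparisons with lipid, with the control mimic and between the controls, and 6 against both controls. FOSL2 against lipid and JUND between the controls were gained (limma adjusted p = 0.0337 and 0.0348). With the block, the count over all genes in each comparison stayed within 1.5 times of the main fit. ZFP36L1 between the controls was -0.05, and -0.20 to 0.23 when single arrays were left out, with 0.23 without control mimic replicate 1 (limma adjusted p = 0.0407). The control mimic values of ZFP36L1 were 6.50, 7.35 and 7.38 for replicates 1 to 3, and why replicate 1 was low was not tested. JUNB against the control mimic, not called at -0.19, passed with array weights (-0.21, limma adjusted p = 0.0372).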
